A study of Mus musculus with 18 samples.

Results

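Described here are 9 components of the Hedgehog pathway, taken by symbol from the 24376 genes of the deposited count table: the ligand Shh, the receptor Ptch1, the co-receptor Boc, the decoy receptor Hhip, the signal transducer Smo, the inhibitor Sufu and the transcription factors Gli1, Gli2 and Gli3. Transcripts were counted by RNA sequencing in 18 samples of epithelium dissected by hand from mammary buds 1 to 3 of mouse embryos on a mixed C57Bl/6 and NMRI background. Stabilized embryos were Krt14Cre/wt; Ctnnb1 flox3/wt, in which Cre, driven by the promoter of the basal keratin Krt14, deletes exon 3 of 1 allele of the β-catenin gene and leaves a protein that escapes degradation. Control littermates were Krt14wt/wt; Ctnnb1 flox3/wt: they carried the same floxed allele without Cre, so that a consequence of Cre itself and one of stabilized β-catenin cannot be told apart. At E13.5, 4 control and 4 stabilized samples came from embryos of both sexes. At E16.5, 5 and 5 came from females only, so that stage and sex makeup cannot be told apart either. Every sample was a pool of 2 to 3 embryos of 1 litter and 1 genotype, and the litter of each sample is not given in the sources used here. Levels are CPM, counts scaled to a common library total after TMM, a factor that corrects for composition. Levels carry their SD (n = 4 in each E13.5 group and 5 in each E16.5 group) and log2 fold changes their SE, and a gene was called where its edgeR p-value, adjusted over all 17269 genes tested, was below 0.05.

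Hedgehog signalling is read at the primary cilium. Without ligand, Ptch1 holds Smo inactive, Sufu retains the Gli proteins, and Gli3 in particular is cut to a repressor. Binding of Shh to Ptch1, helped by co-receptors such as Boc, releases Smo, and full-length Gli2 and Gli3 then act on target genes. Ptch1, Hhip and Gli1 are themselves transcribed in responding cells and serve as the usual readout of the pathway, with Ptch1 and Hhip feeding back on the ligand. In skin, Shh from the epithelial placode drives hair follicle growth, whereas the embryonic mammary bud is known for low Hedgehog activity and for its dependence on Gli3 as a repressor.

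All 9 genes are protein coding and lie on GRCm38/mm10 at 9 separate loci. Shh (ENSMUSG00000002633) spans 5:28456815-28467256 on the minus strand, Ptch1 (ENSMUSG00000021466) 13:63508328-63573598 on the minus strand and Hhip (ENSMUSG00000064325) 8:79965851-80058006 on the minus strand. Smo (ENSMUSG00000001761) spans 6:29735503-29761365 on the plus strand, Boc (ENSMUSG00000022687) 16:44485049-44558897 on the minus strand and Sufu (ENSMUSG00000025231) 19:46396896-46488804 on the plus strand. Gli1 (ENSMUSG00000025407) spans 10:127329882-127341974 on the minus strand, Gli2 (ENSMUSG00000048402) 1:118834132-119053619 on the minus strand and Gli3 (ENSMUSG00000021318) 13:15463235-15730026 on the plus strand. Gene models of Gm13717, Arhgap9 and Gm48343 overlap Smo, Gli1 and Gli3, but reached no more than 83, 132 and 49 counts in any library, and the strand setting of the counting is not given in the sources used here.

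Promoter sequence is shown for Ptch1, Hhip and Gli2, the genes with the largest genotype differences at E16.5 among the 6 of the 9 that the RefSeq promoter table (GRCm38.p6) holds. Each run is the 250 bases before the RefSeq start, 5′ to 3′ on the gene's own strand (minus for all 3), at chr13:63565736-63565985 for Ptch1, chr8:80058009-80058258 for Hhip and chr1:119053620-119053869 for Gli2. Capitals mark CG dinucleotides.
Ptch1: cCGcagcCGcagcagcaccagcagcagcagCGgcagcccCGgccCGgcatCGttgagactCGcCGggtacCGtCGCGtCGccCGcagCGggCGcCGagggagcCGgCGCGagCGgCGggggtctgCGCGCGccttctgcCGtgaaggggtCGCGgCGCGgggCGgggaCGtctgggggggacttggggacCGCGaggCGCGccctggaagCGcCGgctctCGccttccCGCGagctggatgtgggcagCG
Hhip: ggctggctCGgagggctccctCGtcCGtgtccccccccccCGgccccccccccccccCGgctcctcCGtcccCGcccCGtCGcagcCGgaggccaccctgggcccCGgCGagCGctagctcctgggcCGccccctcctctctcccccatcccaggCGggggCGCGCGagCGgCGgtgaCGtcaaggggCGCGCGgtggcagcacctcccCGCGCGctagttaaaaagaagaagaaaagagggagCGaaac
Gli2: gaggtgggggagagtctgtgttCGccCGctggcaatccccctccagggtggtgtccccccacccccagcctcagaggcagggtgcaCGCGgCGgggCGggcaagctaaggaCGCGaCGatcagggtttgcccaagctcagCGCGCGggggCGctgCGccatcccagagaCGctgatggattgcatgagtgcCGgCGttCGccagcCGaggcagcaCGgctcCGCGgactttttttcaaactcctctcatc
The Ptch1 window lies before the first exon of a shorter transcript and within an intron of longer ones. It held 41 CG dinucleotides in 78.4% G and C bases, against medians of 6 and 52.4% over 32851 windows of the same length, and 1.09% of windows held as many. The Hhip window held 28 (76.0% G and C; 7.61% of windows held as many) and the Gli2 window 22 (67.2%; 14.8%). The letters GACCACCCA, the core of a Gli site, and CTTTGAT, a Tcf/Lef site, were searched on both strands. Neither was found in any of the 6 windows, also with 1 mismatch in the former, while 0.225% of all windows held the exact Gli core, 5.79% held it with up to 1 mismatch and 3.21% held CTTTGAT.

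Library totals ran from 26768810 to 36922108 counts. The epithelium markers (8 genes) summed to 2791 to 3265 and 2707 to 3463 CPM in E13.5 controls and stabilized samples. At E16.5 they summed to 2518 to 2785 CPM in controls and, without overlap, to 3777 to 7008 CPM in stabilized samples, with 4 of 8 called higher and 3 lower. Mesenchyme markers (14 genes) were also present, at 363 to 983 CPM in E13.5 controls, 861 to 1027 in E13.5 stabilized samples, 238 to 608 in E16.5 controls and 811 to 1177 in E16.5 stabilized samples. Of these 14, 1 was called higher in stabilized samples at E13.5 and 3 at E16.5, with 1 lower, and Dpt was at 0 in E13.5 controls. Of all tested genes 9.58% were called higher at E13.5, and 22.2% higher and 19.4% lower at E16.5. Hair placode markers (11 genes) summed to 1128 to 1396 and 1336 to 1880 CPM in E13.5 and E16.5 controls and to 2263 to 3071 and 4334 to 7567 CPM in stabilized samples, with 8 and 9 of 11 called higher. Hair shaft markers (9 genes) stayed at or below 23.5 CPM in all E13.5 samples and E16.5 controls and summed to 3680 to 5711 CPM in E16.5 stabilized samples. Markers of Merkel cells (7 genes), which depend on Shh in skin, summed to 47.1 to 56.7 and 27.8 to 39.9 CPM in controls and to 71.2 to 113 and 64.5 to 97.4 CPM in stabilized samples. Of 5 tested, 3 were called higher at each stage and 1 lower at E13.5. The defining factors Atoh1 and Pou4f3 were at 0 in both E13.5 groups. At E16.5 Pou4f3 was at 0 in controls and Atoh1 at 0 in stabilized samples. Ctnnb1, whose exon 3 loss gene counts do not show, stood at 2683 ± 333 and 3260 ± 347 CPM at E13.5 (log2 fold change 0.28 ± 0.16, edgeR adjusted p = 0.307) and at 1248 ± 111 and 2278 ± 564 CPM at E16.5 (0.87 ± 0.15, edgeR adjusted p = 9.02e-05). Krt14, Axin2 and Lef1 were checked too. At E13.5 Krt14 and Lef1 were called lower (-1.22 ± 0.25 and -0.88 ± 0.21, edgeR adjusted p = 0.00169 and 0.00556). Axin2 was not called there (0.45 ± 0.17, edgeR adjusted p = 0.0976). At E16.5 Axin2 and Lef1 were called higher (3.19 ± 0.17 and 2.62 ± 0.20, edgeR adjusted p = 2.85e-11 and 3.11e-09). Krt14 was not called at that stage (-0.37 ± 0.22, edgeR adjusted p = 0.189). Mitochondrial genes took 1.79% to 2.45% of counts in E13.5 stabilized samples, 2.21% to 3.88% in E16.5 controls and 2.62% to 5.36% in E16.5 stabilized samples, highest in replicates 2 and 5; their part in the results was not tested. In 1 library, E13.5 control replicate 3, the share was 4.18% (2.18% to 2.50% in the other E13.5 controls), the mesenchyme sum was the highest of its group, and the mean Spearman correlation across genes with its own group was 0.945 (0.961 to 0.964 for the others). Results that turn on it are given without it.

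The genotype comparison at each stage asked how transcripts of the ligand, its receptors and its effectors differed between stabilized and control samples. The ligand gene was close to silent in controls and abundant in stabilized epithelium. Shh was measured at 0.592, 0.0297, 0 and 0 CPM in the 4 E13.5 controls, where the libraries at 0 allow up to 0.100 and 0.0971 CPM (3 counts), and at 138, 98.3, 163 and 165 CPM in the 4 stabilized samples. The E16.5 values were 0.0292, 0.226, 0.376, 0.335 and 0.143 CPM in controls and 90.5, 104, 141, 84.0 and 129 CPM in stabilized samples. The groups did not overlap at either stage, and the lowest stabilized library, at 84.0 CPM, stood far above the highest control, at 0.592 CPM. Summed over libraries, stabilized samples held 860 times the control level at E13.5 (95% exact counting interval 563 to 1390, from 16740 and 21 counts) and 516 times at E16.5 (365 to 754, from 15953 and 32 counts). These intervals cover counting error only. Fitted log2 fold changes were 9.73 ± 0.71 (edgeR adjusted p = 1.18e-07) and 8.96 ± 0.62 (edgeR adjusted p = 9.62e-09). Of the 21 counts in E13.5 controls, 20 came from replicate 1. Without it the controls held 1 count, and the ratio was 13305 (95% exact counting interval 2388 to 525541). Shh passed the filter on low counts only through its stabilized samples.

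The target genes Ptch1, Gli1 and Hhip rose with the ligand at both stages. Ptch1 was at 40.7, 49.0, 18.1 and 27.9 CPM in E13.5 controls and at 858, 783, 1131 and 1241 CPM in stabilized samples. At E16.5 the values were 33.4, 33.7, 37.7, 33.8 and 40.6 CPM and 1173, 854, 1496, 870.5 and 1014 CPM. Every stabilized library exceeded every control at its stage, with ratios of the group means of 29.6 at E13.5 and 30.2 at E16.5. The log2 fold changes were 4.89 ± 0.28 (edgeR adjusted p = 8.17e-10) and 4.92 ± 0.25 (edgeR adjusted p = 2.02e-11), and their difference was 0.03 ± 0.32 (edgeR adjusted p = 0.975). Unlike Shh, Ptch1 was well above 0 in all 9 control libraries, and 18.1 CPM, the lowest of them, belonged to E13.5 control replicate 3.

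Gli1, the activator whose own transcription depends on the pathway, was at 0.414, 0.654, 0.468 and 3.37 CPM in E13.5 controls and at 145, 176, 156 and 138 CPM in stabilized samples. The later stage gave 1.49, 2.55, 1.84, 1.04 and 2.11 CPM in controls and 189, 146, 165, 125 and 155 CPM in stabilized samples. The groups were apart by a wide margin, and the stabilized samples reached the same order of level at both stages. Fold changes on the log2 scale were 6.97 ± 0.56 (edgeR adjusted p = 2.76e-07) and 6.43 ± 0.48 (edgeR adjusted p = 2.46e-08). The E13.5 value was 8.22 without control replicate 4, the one E13.5 control above 1 CPM.

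Hhip, which binds the ligand at the cell surface and keeps it from Ptch1, differed from the other targets in its controls. At E13.5 it had 0, 0, 0 and 0.0324 CPM in controls, a single count in 4 libraries (3 counts would be 0.0887 to 0.100 CPM in the libraries at 0), and 10.4, 9.49, 16.8 and 12.3 CPM in stabilized samples. At E16.5 it had 4.79, 4.62, 5.56, 5.53 and 3.61 CPM in controls and 18.9, 27.7, 32.6, 27.3 and 37.7 CPM in stabilized samples. No group overlapped another, since E16.5 controls lay between E13.5 controls and E13.5 stabilized samples. The ratio of summed counts per library total at E13.5 was 1567 (95% exact counting interval 281 to 61942, from 1452 counts and 1 count). At E16.5 the ratio of the means was 5.99 (log2 fold change 2.58 ± 0.26, edgeR adjusted p = 1.42e-07). Within controls Hhip was 618 times higher at E16.5 than at E13.5 (111 to 24434, from 721 counts and 1 count), while Shh, Ptch1 and Gli1 showed no called stage difference in controls (0.41 ± 0.85, 0.08 ± 0.23 and 0.57 ± 0.47, edgeR adjusted p = 0.726, 0.810 and 0.348). For Shh and Gli1 this depended on 1 library each: the stage difference was called without E13.5 control replicate 1 for Shh and without E13.5 control replicate 4 for Gli1 (1.81). The former rests on 32 counts against 1, a ratio of 20.2 (95% exact counting interval 3.37 to 822).

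**Figure D1:**
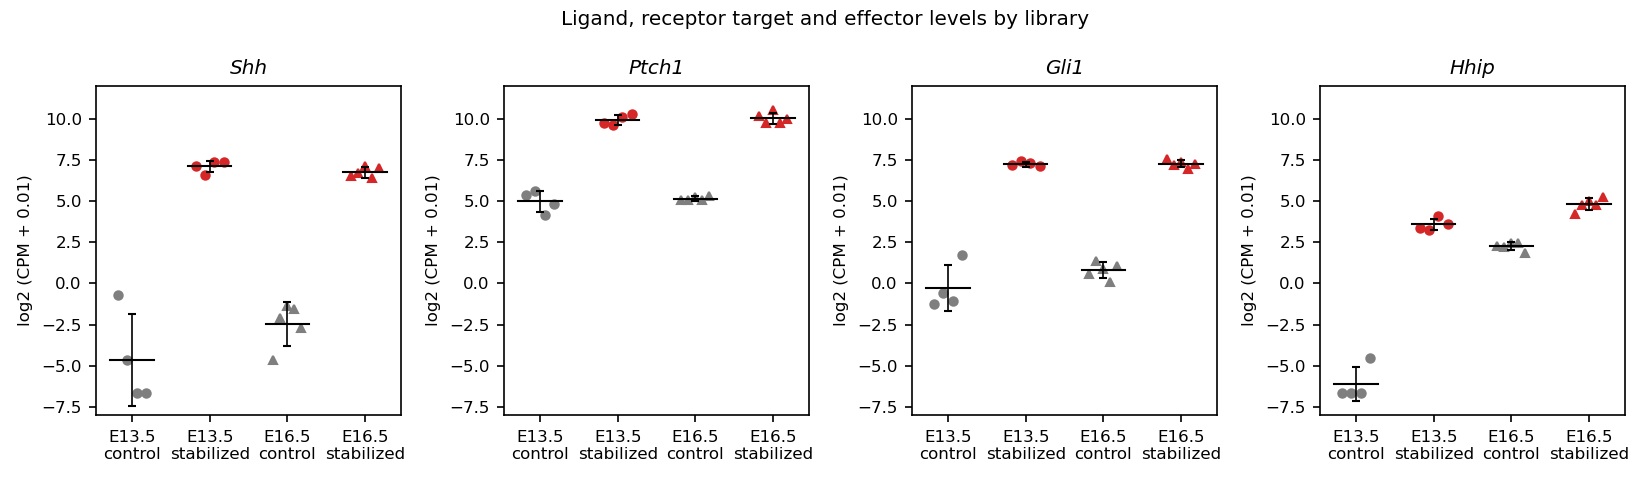
Levels of Shh, Ptch1, Gli1 and Hhip in each of the 18 libraries, by stage and genotype, on an axis of log2 (CPM + 0.01), so that libraries at 0 can be drawn; points are libraries, and bars are the group mean and SD. Stabilized samples lie above controls without overlap for all 4 genes at both stages, and Hhip alone of the 4 separates the E16.5 controls from the E13.5 controls.

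The sum of the mesenchyme markers moved in the same direction as these genes at both stages. Marker by marker, the median log2 fold change of the 14 was -0.46 at E13.5 and 1.01 at E16.5. The sum did not overlap between genotypes at E16.5, and at E13.5 it overlapped only through control replicate 3. That library, with the highest mesenchyme sum of the E13.5 controls, at 983 CPM, had 18.1 CPM of Ptch1, 0.468 CPM of Gli1 and 0 counts of Hhip. Placode markers and Merkel cell markers also summed higher in stabilized samples at both stages, and epithelium markers at E16.5. The part of these cell types in the result was not tested. In samples of bulk tissue, more cells that express a gene and more of its RNA per cell cannot be told apart.

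Smo and Boc, the transducer and the co-receptor, changed little by comparison, and Boc moved in opposite directions at the 2 stages. Smo, which passes the signal on once Ptch1 is bound, was at 183, 172, 167 and 169 CPM in E13.5 controls and at 156, 189, 212 and 205 CPM in stabilized samples, a difference of 0.14 ± 0.13 on the log2 scale (edgeR adjusted p = 0.552). At E16.5 it was at 199, 224, 246, 216 and 256 CPM in controls and at 199, 187, 199.8, 140.0 and 196 CPM in stabilized samples. It fell by 0.31 ± 0.11 there (edgeR adjusted p = 0.0341), with 1 control just inside the upper end of the stabilized range. This call was lost without any 1 of 5 E16.5 libraries (control replicates 2, 3 and 5, stabilized replicates 2 and 4). Stabilized replicate 4, at 140.0 CPM, was the lowest of all, and the values without each ran from -0.35 to -0.23.

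Boc was at 53.4, 50.8, 33.7 and 52.5 CPM in E13.5 controls and at 30.5, 31.7, 38.3 and 29.7 CPM in stabilized samples. Its level fell by 0.55 ± 0.14 in log2 units (edgeR adjusted p = 0.0119), and 1 control, replicate 3, lay within the stabilized range. At E16.5 it was at 61.0, 63.2, 65.5, 61.7 and 67.7 CPM in controls and at 98.2, 109, 106, 77.8 and 96.2 CPM in stabilized samples, a rise of 0.61 ± 0.13 (edgeR adjusted p = 0.000676) with no overlap. The 2 effects differed by 1.16 ± 0.19 (edgeR adjusted p = 0.000113). The E13.5 call was lost when the model was fitted to the 8 E13.5 libraries alone (-0.56, edgeR adjusted p = 0.0714).

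The Gli genes that transduce the signal without needing it for their own transcription behaved differently from Gli1. Gli2, the main activator, was at 83.3, 71.9, 32.2 and 47.9 CPM in E13.5 controls and at 95.6, 106, 108 and 83.6 CPM in E13.5 stabilized samples. The highest control, at 83.3 CPM, lay just below the lowest stabilized sample, at 83.6 CPM, and the difference of 0.74 ± 0.25 on the log2 scale did not pass (edgeR adjusted p = 0.0563), although DESeq2 called it (0.73, adjusted p = 0.0304), as did edgeR without any 1 of 4 libraries (E13.5 control replicate 1, E16.5 control replicate 1, E16.5 stabilized replicates 1 and 4). At E16.5 Gli2 was at 12.8, 23.1, 23.3, 17.3 and 22.0 CPM in controls and at 227, 156, 137, 125 and 164 CPM in stabilized samples. That was a rise of 3.04 ± 0.24 (edgeR adjusted p = 1.16e-08), 8.21 times by the ratio of the means. The effect was larger at E16.5 by 2.30 ± 0.34 (edgeR adjusted p = 4.22e-05). Between the stages Gli2 fell by 1.58 ± 0.24 in controls (edgeR adjusted p = 2.61e-05), to below every E13.5 library, and rose by 0.72 ± 0.24 in stabilized samples (edgeR adjusted p = 0.0311). The rise in stabilized samples was no longer called without any 1 of 4 libraries (E13.5 stabilized replicates 1, 2 and 4, E16.5 stabilized replicate 1).

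Gli3, the main repressor of the family, varied less. It was at 129.6, 135, 82.2 and 104 CPM in E13.5 controls and at 93.5, 107, 97.3 and 96.3 CPM in stabilized samples, a difference of -0.19 ± 0.13 on the log2 scale (edgeR adjusted p = 0.414), with the stabilized range inside that of controls. In E16.5 samples Gli3 was at 79.3, 94.7, 84.1, 76.8 and 86.3 CPM in controls and at 109, 132, 141, 122 and 121 CPM in stabilized samples. There it rose by 0.57 ± 0.12 (edgeR adjusted p = 0.000715), without overlap, and the effects at the 2 stages differed by 0.76 ± 0.18 (edgeR adjusted p = 0.00279). At this stage, where Gli2, Gli3 and Boc were all higher, the mesenchyme markers also summed to 811 to 1177 CPM against 238 to 608 CPM in controls, and their part in these rises was not tested. With offsets of the deposited normalized table neither call was kept (0.45 and 0.34, edgeR adjusted p = 0.104 and 0.480).

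The balance among the 3 Gli genes was compared within each library, which removes any factor common to all genes of a library. Gli1 as a percent of the summed Gli1, Gli2 and Gli3 level, each in CPM per kb of exon, was 0.322, 0.532, 0.702 and 3.65% in E13.5 controls and 55.0, 57.0, 54.8 and 55.4% in stabilized samples. At E16.5 it was 2.86, 3.72, 2.94, 1.94 and 3.34% in controls and 46.1, 44.4, 48.9, 44.7 and 45.9% in stabilized samples. By group means Gli1 was the least abundant of the 3 per length in controls and the most abundant in stabilized samples, with 1.30% ± 1.57 against 55.6% ± 0.958 at E13.5 (n = 4 and 4, exact two-sided permutation p = 0.0286, 0.0381 adjusted over 8 tests) and 2.96% ± 0.666 against 46.0% ± 1.78 at E16.5 (n = 5 and 5, exact p = 0.00794, adjusted 0.0317). Within stabilized samples the share fell by 9.56 percentage points from E13.5 to E16.5 (exact p = 0.0159, adjusted 0.0317), the stage at which Gli2 was higher. These p-values are the smallest that 4 against 4, 5 against 5 and 5 against 4 libraries allow. From the deposited normalized counts, the share was up to 16.7% in controls (E13.5 control replicate 4) and down to 35.3% in stabilized samples, still without overlap between genotypes. With those counts the stage difference within stabilized samples was -14.3 percentage points and did not pass (exact p = 0.0635).

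The log2 ratio of Gli2 to Gli3 counts was -0.64, -0.90, -1.35 and -1.11 in E13.5 controls and 0.03, -0.01, 0.14 and -0.20 in stabilized samples. At E16.5 it was -2.64, -2.03, -1.85, -2.15 and -1.97 in controls and 1.06, 0.23, -0.04, 0.04 and 0.43 in stabilized samples. Controls had fewer Gli2 than Gli3 counts in all 9 libraries, whereas stabilized samples lay on both sides of equal counts. The means were -1.0 ± 0.30 and -0.01 ± 0.15 at E13.5 (n = 4 and 4, exact two-sided permutation p = 0.0286, adjusted 0.0381) and -2.13 ± 0.30 and 0.34 ± 0.44 at E16.5 (n = 5 and 5, exact p = 0.00794, adjusted 0.0317). In controls the ratio fell by 1.13 from E13.5 to E16.5 (exact p = 0.0159, adjusted 0.0317). In stabilized samples it differed by 0.36 between the stages (exact p = 0.127). With the deposited normalized counts the E13.5 genotype difference was 0.60 and did not pass (exact p = 0.171). This ratio is of counts and is not scaled by length. Per kb of exon, mean Gli2 stood above mean Gli3 in stabilized samples (14.3 against 10.3 at E13.5, 23.5 against 13.0 at E16.5). In controls it stood below (8.56 against 11.7 and 2.87 against 8.78).

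**Figure D2:**
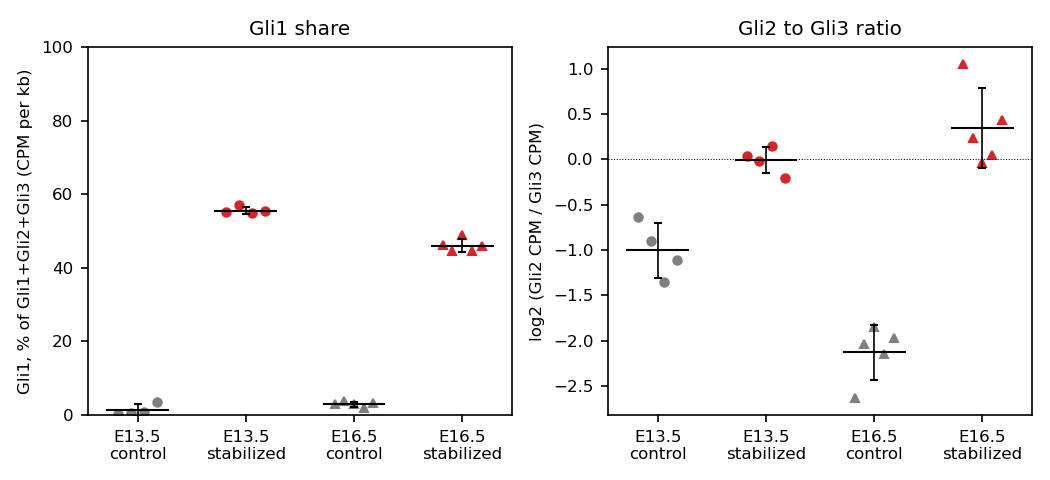
Gli1 as a percent of the summed Gli1, Gli2 and Gli3 level per kb of exon (left) and log2 ratio of Gli2 to Gli3 counts, not scaled by length (right), in each library, by stage and genotype. Bars are the group mean and SD. From counts in CPM, the Gli1 share lies at or below 3.72% in all 9 control libraries and at or above 44.4% in all 9 stabilized libraries, and the Gli2 to Gli3 ratio of E16.5 controls is the lowest of the 4 groups.

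Sufu, which binds the Gli proteins and restrains them, was at 66.6, 70.2, 41.0 and 60.0 CPM in E13.5 controls and at 70.8, 81.8, 90.3 and 84.9 CPM in stabilized samples. The difference of 0.46 ± 0.16 on the log2 scale did not pass (edgeR adjusted p = 0.0596), though the ranges did not overlap and DESeq2 called it (adjusted p = 0.0421), as did edgeR without E13.5 control replicate 2 or E16.5 stabilized replicate 4. In E16.5 samples Sufu was at 113, 97.0, 112, 101 and 103 CPM in controls and at 99.2, 110.0, 120.5, 71.2 and 104 CPM in stabilized samples, with no called difference (-0.06 ± 0.14, edgeR adjusted p = 0.776). The E16.5 stabilized samples spanned the control range on both sides, with replicate 4 the lowest. In controls Sufu rose from E13.5 to E16.5 by 0.82 ± 0.15 (edgeR adjusted p = 0.000218).

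**Figure D3:**
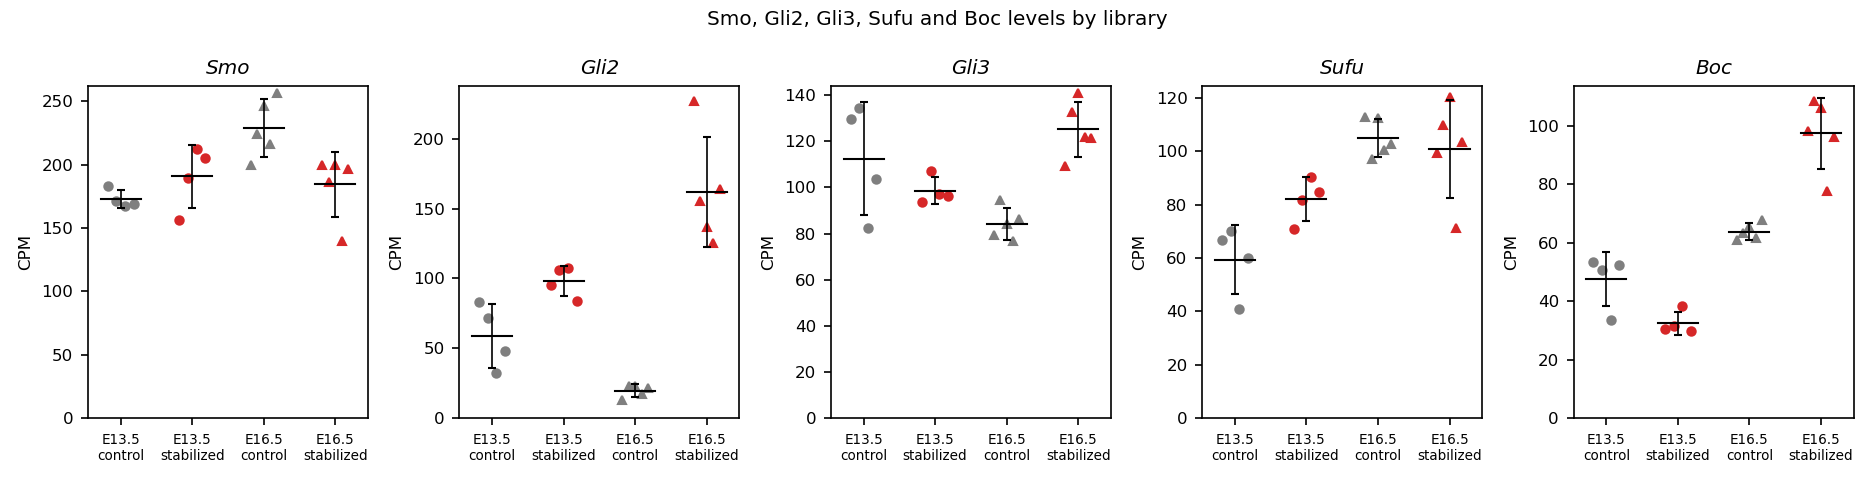
Levels of Smo, Gli2, Gli3, Sufu and Boc in each of the 18 libraries, by stage and genotype, in CPM; points are libraries, and bars are the group mean and SD. Gli2 at E16.5 shows the widest separation of genotypes, Boc and Gli3 separate at E16.5 only, and Smo and Sufu overlap between genotypes at E16.5.

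Over the 9 genes, 4 were called higher in stabilized samples at E13.5 (Shh, Ptch1, Gli1 and Hhip) and 1 lower (Boc), where 14.9% of all tested genes were called, 9.58% higher and 5.29% lower. At E16.5, 7 were called higher and 1 (Smo) lower, where 41.7% of all genes were called, 22.2% higher and 19.4% lower. The median log2 fold change of the 9 was 0.74 at E13.5 and 2.58 at E16.5, against 0.01 and 0.10 over all tested genes. Genotype effects differed between the stages for 5 of the 9 in the interaction test, in which 32.2% of all genes were called, 15.6% higher and 16.6% lower. Gli2, Gli3 and Boc were higher and Smo and Hhip lower in their E16.5 effect. The Hhip value of -7.42 ± 0.58 (edgeR adjusted p = 2.34e-08) rests on the single count in E13.5 controls and depends on the prior count, and the Smo value of -0.45 ± 0.17 (edgeR adjusted p = 0.0482) was no longer called with library totals alone, without the filter, with offsets or with DESeq2 (adjusted p from 0.0543 to 0.112), nor without any 1 of 14 of the 18 libraries. For Shh, Gli1 and Sufu the differences between the effects were -0.77 ± 0.95, -0.54 ± 0.61 and -0.52 ± 0.22 (edgeR adjusted p = 0.589, 0.552 and 0.0713). They were called for Shh without E13.5 control replicate 1 (-4.26, which rests on the 1 count left and depends on the prior count), for Gli1 without E13.5 control replicate 4 (-1.78) and for Sufu without E13.5 control replicate 2 or E16.5 stabilized replicate 3 (-0.61 and -0.59). With E13.5 control replicate 3 and E16.5 stabilized replicate 4 both left out, a setting chosen after seeing the data, 5 and 1 were called at E13.5 and 7 and 0 at E16.5.

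**Figure D4:**
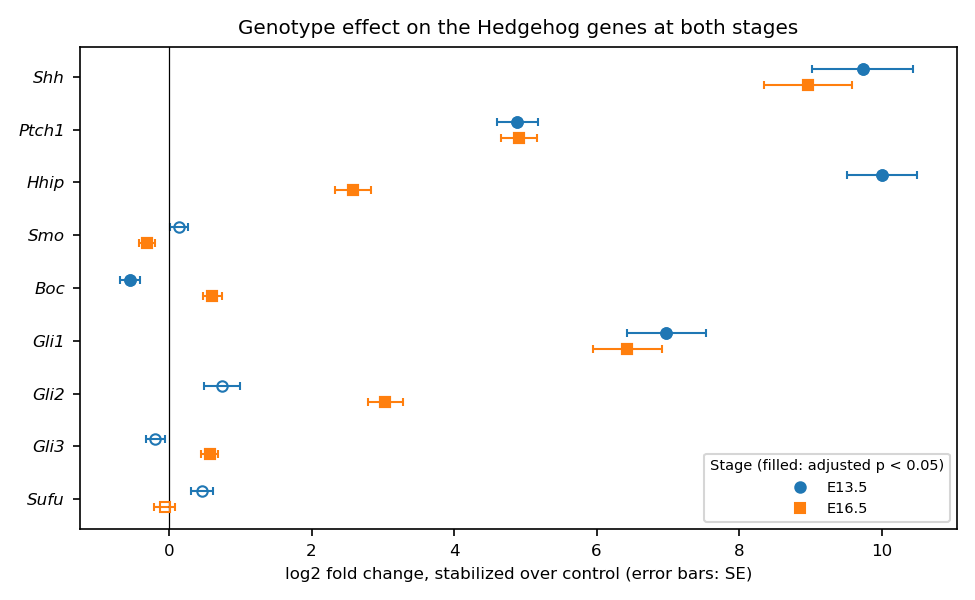
Log2 fold change of stabilized over control for the 9 genes at E13.5 and at E16.5, with bars of 1 SE from the edgeR fit; filled points are called. Shh, Ptch1, Gli1 and Hhip lie far to the right at both stages, Gli2 at E16.5 only, and Boc changes sign.

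The stage comparison asked how the same genes differed between the bud stage and the sprouting stage within a genotype. In controls 4 of the 9 were called higher at E16.5 (Hhip, Sufu, Boc and Smo) and 2 lower (Gli2 and Gli3), where 47.5% of all genes were called, 24.9% higher and 22.6% lower, so that 6 of 9 is near the share among all genes. Smo rose by 0.40 ± 0.12 (edgeR adjusted p = 0.00982) and Boc by 0.42 ± 0.14 (edgeR adjusted p = 0.0156), and Gli3 fell by 0.42 ± 0.13 (edgeR adjusted p = 0.0107). The Boc call was lost without E13.5 control replicate 3 (0.29), and the Gli3 call without E13.5 control replicate 1 or 2. In stabilized samples 3 of the 9 were called, each of them higher at E16.5, where 28% of all genes were called in either direction. Boc rose by 1.58 ± 0.14 (edgeR adjusted p = 1.12e-07), Hhip by 1.24 ± 0.26 (edgeR adjusted p = 0.00145) and Gli2 as above. The 2 stage comparisons hold no library in common, and each shares its libraries with the genotype comparisons. Scaling by library totals alone moved the median of all genes by -0.24 in controls and by -0.28 in stabilized samples. With that scaling, the Smo and Boc rises in controls and the Gli2 rise in stabilized samples were no longer called. Their values there were 0.17, 0.18 and 0.44 (edgeR adjusted p = 0.403, 0.407 and 0.188). These values include the shift of the median.

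Genes were also ordered by mean level per length (CPM per kb of exon, merged over all annotated transcripts). A gene expressed mainly as shorter transcripts comes out too low on this scale. Smo led in both control groups, with 30.7 ± 1.29 at E13.5 and 40.7 ± 4.06 at E16.5. In E13.5 controls Gli3 (11.7), Boc (10.7), Gli2 (8.56) and Sufu (7.73) followed, each within the SD of its neighbour, then Ptch1 (2.39), Gli1 (0.245), Shh (0.0546) and Hhip (0.000891), the last 2 with libraries at 0 counts. In E16.5 controls Boc (14.3) and Sufu (13.7) did not differ beyond their spread, Gli3 (8.78) stood apart, Gli2 (2.87) had dropped to the level of Ptch1 (2.53), and Hhip (0.531) and Gli1 (0.362) lay above Shh (0.0779). In stabilized samples Ptch1 led with 70.7 ± 15.4 and 76.2 ± 18.7 CPM per kb, followed by Shh with 49.5 ± 10.9 and 38.5 ± 8.62. At E13.5 Ptch1 and Shh overlapped within their SD, as did Smo (33.9) with Gli1 (30.8), and Hhip (1.35) was the lowest. At E16.5 Shh, Smo (32.8), Gli1 (31.2), Gli2 (23.5) and Boc (21.9) each overlapped their neighbour, and Sufu (13.1), Gli3 (13.0) and Hhip (3.18) came last.

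Beyond the 9, 46 further genes of the pathway were listed by role, and 42 of them were tested. At E13.5, 8 were called higher in stabilized samples and 5 lower (median log2 fold change -0.03), and at E16.5, 13 and 8 (median 0.17). Of all genes 14.9% and 41.7% were called in either direction at these stages, so that 21 of 42 at E16.5 is near the background. Of 4 surface proteins that bind Hedgehog ligands, 2 rose and 1 fell at E13.5 and 2 rose at E16.5. Lrp2, an endocytic receptor that binds the ligand, rose at both stages from levels near 0: E13.5 controls held 5, 0, 0 and 0 counts, and stabilized samples averaged 1.52 ± 1.04 CPM there and 2.36 ± 1.27 CPM at E16.5. The E16.5 ranges overlapped, with stabilized replicate 1 at 0.612 CPM below control replicates 2 and 5 at 0.711 and 0.643 CPM. The co-receptor Gas1 went from 38.9 ± 4.70 to 193 ± 22.9 CPM at E13.5 (log2 rise of 2.31 ± 0.17, edgeR adjusted p = 2.11e-08). At E16.5 its controls had reached 151 ± 17.8 CPM and the difference to 193 ± 51.1 CPM did not pass (0.35 ± 0.15, edgeR adjusted p = 0.0618). Cdon, a co-receptor related to Boc, fell at E13.5 (-0.51 ± 0.15, edgeR adjusted p = 0.0274) and rose at E16.5 (0.34 ± 0.13, edgeR adjusted p = 0.0498), the directions that Boc took.

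Among the genes for making and releasing ligands, Ihh, Dhh and Scube2 were too low to be tested. Scube1, a secreted protein that helps release the lipid-bound ligand, rose from 125 ± 28.6 to 314 ± 35.4 CPM at E13.5 and from 1.68 ± 0.818 to 107 ± 17.2 CPM at E16.5 (1.33 ± 0.25 and 5.99 ± 0.28). Scube3 fell at both stages, from 340 ± 78.6 to 173 ± 19.7 CPM and from 364 ± 21.9 to 83.2 ± 28.1 CPM (-0.97 ± 0.22 and -2.13 ± 0.20). Disp1, the transporter that exports the ligand, rose from 21.9 ± 3.22 to 52.2 ± 4.42 CPM at E16.5 (1.25 ± 0.12). Its E13.5 difference of -0.30 ± 0.13 did not pass, and the 2 effects differed by 1.56 ± 0.18 (edgeR adjusted p = 1.89e-06).

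Of 11 tested genes often used as Hedgehog targets, 4 rose and 0 fell at E13.5, where 9.58% and 5.29% of all genes did, and 4 rose and 4 fell at E16.5, against 22.2% and 19.4% of all genes. Mycn, a driver of proliferation, rose at both stages (1.51 ± 0.20 and 1.38 ± 0.18), as did Prdm1, a transcriptional repressor (3.37 ± 0.29 and 4.49 ± 0.27). Foxe1 and Osr2, both transcription factors, had 0 counts in all E13.5 controls and were at least 138-fold and 144-fold higher in stabilized samples, against 3 counts over the group. The cyclin gene Ccnd1 stood at 362 ± 89.7 and 375 ± 92.1 CPM at E13.5 and fell at E16.5 from 1576 ± 193 to 373 ± 91.5 CPM (-2.08 ± 0.20). Bcl2, Sfrp1 and Osr1 also fell at E16.5 (-1.41 ± 0.15, -2.99 ± 0.42 and -2.67 ± 0.76).

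The 15 intracellular regulators of Smo and Gli gave 1 higher and 1 lower call at E13.5 and 3 and 3 at E16.5, near the shares of 14.9% and 41.7% among all genes. Spop, which targets Gli proteins for degradation, fell at E13.5 (-0.39 ± 0.12) and rose at E16.5 (1.07 ± 0.11), whereas Evc and Evc2, which sit with Smo at the base of the cilium, fell at E16.5 (-0.85 ± 0.14 and -0.86 ± 0.11). Of 8 ciliary transport genes, 2 (Kif3a and Arl13b) were lower at E13.5 and 2 (Arl13b and Rpgrip1l) higher at E16.5, where 5.29% of all genes were lower and 22.2% higher. In controls 7 of these 8 were lower at E16.5 than at E13.5, where 22.6% of all genes were lower.

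**Figure D5:**
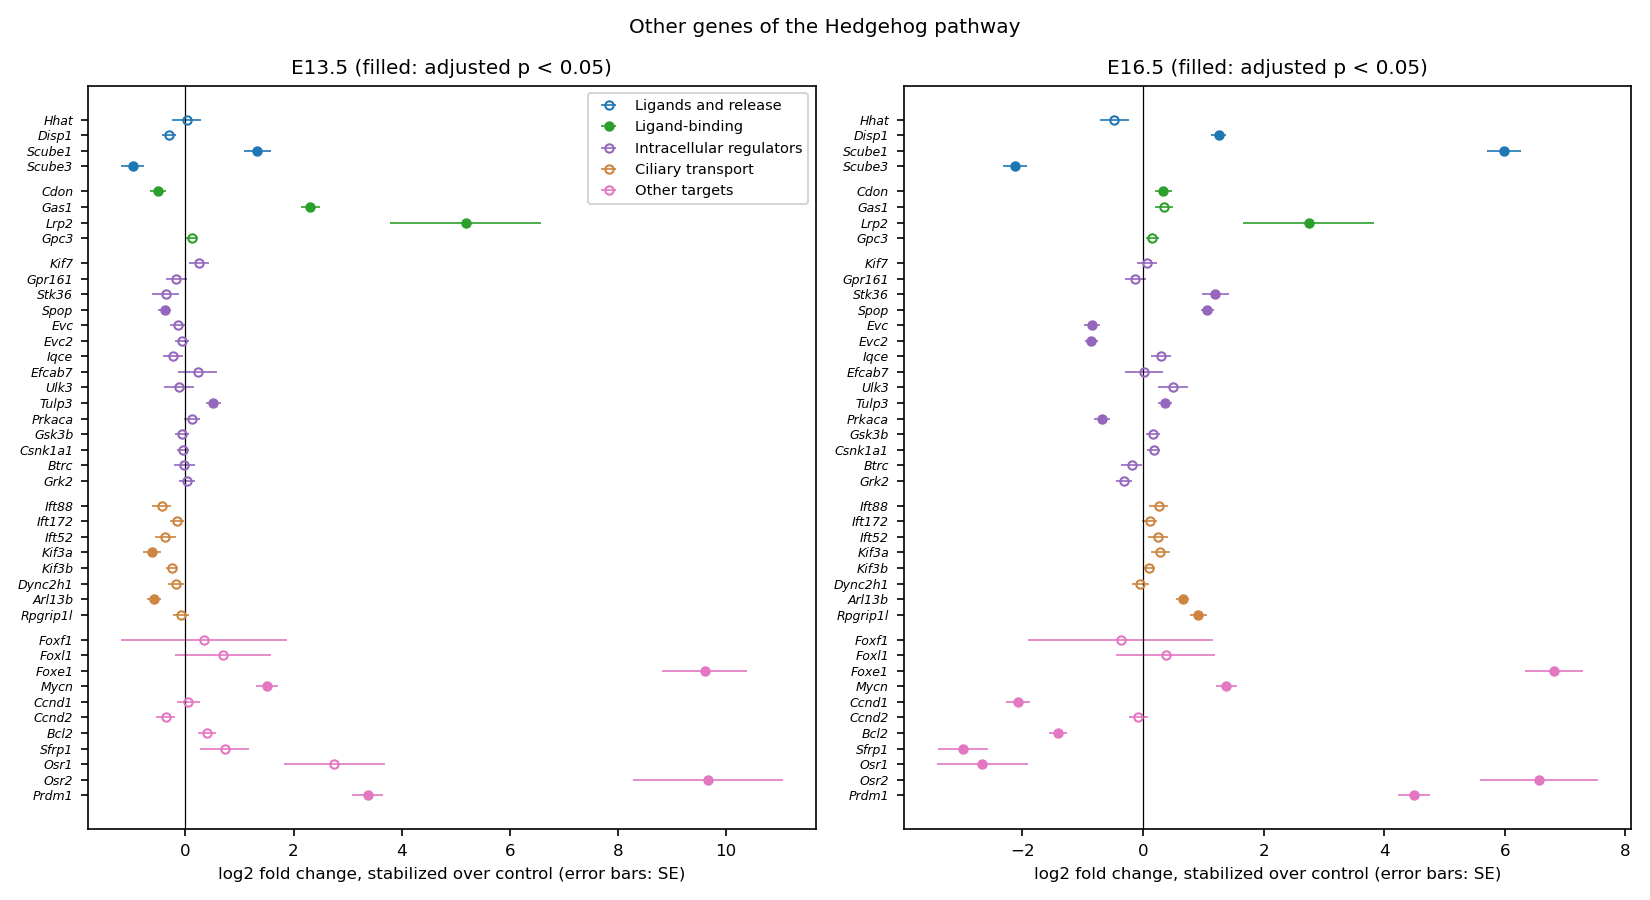
Log2 fold change of stabilized over control at E13.5 and E16.5 for the further Hedgehog genes that were tested, grouped by role; filled points are called. Scube1, Foxe1, Osr2 and Prdm1 lie to the right at both stages, Scube3 to the left at both, and Ccnd1, Bcl2, Sfrp1 and Osr1 to the left at E16.5 only.

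Genes whose pattern over the 18 libraries was most like that of Shh, Ptch1 or Gli1 were ranked among 13329 genes by the root mean square difference in log2 CPM after centring each gene on its mean. Nearest to Shh were Hmx2 (1.23), Lrrtm1 (1.32), Lhx2 (1.32), Cabp1 (1.41) and Hmx3 (1.46). Hmx2 averaged 0.104 and 14.3 CPM in control and stabilized samples at E13.5 and 0.114 and 31.0 CPM at E16.5, so that it shared the near-silent controls of Shh at both stages. Nearest to Ptch1 were Armh4 (0.725), Prss22 (0.741), Edn2 (0.755), Pitx1 (0.765) and Osr2 (0.781). Nearest to Gli1 were Cabp1 (0.946), Fgf8 (0.984), Lsamp (0.989), Lmo3 (1.01) and Osr2 (1.03). Cabp1 thus appeared beside both Shh and Gli1, and Osr2 beside both Ptch1 and Gli1. Pitx1, Osr2, Fgf8 and Lmo3 were at 0 CPM in E13.5 controls and averaged at most 11.9 CPM in any group. Their distances therefore depend on the prior count of 2. Cabp1 (0.0453 CPM) and Hmx3 (0.00809 CPM) were near 0 in E13.5 controls as well, as was Shh itself. The distances from Shh and those of Cabp1 therefore depend on the prior count too. The nearest 5 of Shh, Ptch1 and Gli1 held none of the 9 pathway genes; the other 6 genes were not ranked, and these distances carry no test.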

How the data were processed

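RNA sequencing of 18 pooled samples of mammary epithelium was grouped by the stage and genotype in the labels. The authors' deposited table holds estimated counts per Ensembl gene, already whole numbers, and their second deposited table holds a signal, normalized counts, used only for an alternative. Per the submitters' processing notes, the tools were Trimmomatic 0.39, Salmon 0.99.0 and DESeq2 3.15, with quality reports from FastQC 0.11.8 and MultiQC 1.9 and build mm10. No settings are stated in these notes. A counter that assigns reads to transcripts can share reads among overlapping or similar genes. No value column was left unused.

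In edgeR 4.0.16 (R 4.3.3), filterByExpr (minimum count 10) kept 17269 of 24376 genes and all 9 Hedgehog genes. TMM factors and a robust quasi-likelihood fit with 1 mean per group over all 18 libraries followed. Contrasts were genotype at each stage, their difference (the interaction) and stage in each genotype, with Benjamini-Hochberg adjustment over all genes tested and a threshold of 0.05. P-values measure the spread between pooled samples, some of which may share a litter. Within-library Gli ratios were compared by exact permutation tests (scipy 1.17.1), adjusted over 8 tests. Exon lengths, merged over all annotated transcripts of a gene, and positions came from GENCODE M21. Which transcripts were expressed was not tested, and this bears on the order of genes per kb and on the Gli1 share. The fits were tested on simulated data.

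The 9 genes and all lists were chosen with earlier results of these data known, and 1 listed gene is not reported here. Named were the 9, with Ctnnb1, Krt14, Axin2 and Lef1 as checks, and up to 3 called genes of each fixed list per genotype comparison. Also named were further list members beside their list's count, and the 5 genes nearest in pattern to Shh, Ptch1 and Gli1 (highest group mean log2 CPM of at least 1, prior count 2). Alternatives were library totals alone, no filter, offsets from the deposited normalized table, only the libraries compared, each library left out, a replicate block and DESeq2 1.42.0.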

Additional observations from a re-analysis of the deposited data

Results flagged for a closer look

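Of 44 groups of libraries checked for a single library far from the others by Dixon's criterion at 95%, 6 held one. Chance meets this criterion in about 1 in 20 groups of normally distributed values, which counts near 0 are not. In E13.5 controls, Shh stood at 0.592 CPM in replicate 1, against 0.0297 CPM or less in the others. Gli1 stood at 3.37 CPM in replicate 4 of the same group, against 0.414 to 0.654 CPM, and the Gli1 share of that library was 3.65%. The single count of Hhip among E13.5 controls, 0.0324 CPM, was in replicate 4 as well. A single count among libraries at 0 meets the criterion whatever its size. Boc stood at 33.7 CPM in E13.5 control replicate 3, against 50.8 to 53.4 CPM in the others. Smo stood at 140.0 CPM in E16.5 stabilized replicate 4, against 187 to 200 CPM in the others.

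The effect of genotype differed between the stages for 5 of the 9 genes by the interaction term of the edgeR model (E16.5 effect minus E13.5 effect, log2). The values were 2.30 for Gli2, 1.16 for Boc, 0.76 for Gli3, -0.45 for Smo and -7.42 for Hhip, the last with 1 count in all E13.5 controls.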

How the results depend on the processing

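The calls of Shh, Ptch1, Gli1 and Hhip between genotypes kept their direction and side of the threshold at both stages under every setting tried, as did Gli2 and Boc at E16.5. Counts below are called genes, and differences are log2 unless stated.

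With library totals alone, 1 of the 9 was lower in the interaction and 2 higher by stage in controls. Of the other Hedgehog genes, 6 were then higher by stage in controls, and 2 higher and 18 lower by stage in stabilized samples. Stage differences changed sign for Ptch1 (-0.17 in controls, -0.15 in stabilized samples) and Gli1 (-0.25 in stabilized samples), and of all called genes 37.4% in controls and 32.2% in stabilized samples were higher, against 52.4% and 58.9% with TMM. Without the filter on low counts, 0 of the 9 were lower at E16.5 and 1 in the interaction. With offsets of the deposited normalized table, 0 of the 9 were lower at E16.5, 1 in the interaction and 1 by stage in controls, 1 other Hedgehog gene was lower at E13.5, and 1712 of all genes were called at E13.5 in place of 2569. Differences of changed sign there were Gli3 at E13.5 (0.11), Ptch1 and Gli1 in the interaction (-0.28 and 0.60) and Gli1 by stage (-0.73 in controls, -0.13 in stabilized samples). With only the compared libraries in the fit, 0 of the 9 and 3 other Hedgehog genes were lower at E13.5, and 1651 genes were called. With DESeq2, 1 of the 9 was lower in the interaction. Without E13.5 control replicate 3 and E16.5 stabilized replicate 4 (chosen after seeing the data), 0 of the 9 were lower at E16.5, 1 in the interaction and 5 were higher by stage in stabilized samples; Sufu at E16.5 (0.0553), Ptch1 by stage in controls (-0.14) and Smo by stage in stabilized samples (0.0327) changed sign. From the deposited normalized counts, the Gli1 share differed by stage by -0.805 percentage points in controls and -14.3 in stabilized samples. In controls the difference from CPM was 1.66 (exact permutation p = 0.0794, adjusted 0.0907), so its sign changed. The Gli2 to Gli3 ratio from the deposited normalized counts differed by 0.60 between genotypes at E13.5 and by 1.02 between stages in stabilized samples. In stabilized samples the stage difference of the share no longer passed there (exact p = 0.0635), while that of the ratio did before adjustment (exact p = 0.0476). The cause of these shifts was not tested.

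Same-numbered libraries did not deviate together (correlations from -0.0906 to 0.172 at E13.5 and from -0.0995 to 0.131 at E16.5, with 1 of 4 and 2 of 5 controls best with their own number), so the numbers were not taken as pairs. These correlations were taken within a stage. Between stages, same-numbered libraries come from different litters, so the block and the pairs there rest on the number alone. With the replicate block, 0 of the 9 and 3 other Hedgehog genes were lower at E13.5 (Boc at an edgeR adjusted p of 0.0536), 1 of the 9 was lower in the interaction, where Ptch1 was at -0.0690, and Gli2 by stage in stabilized samples was no longer called (0.68). Exact sign-flip tests over these pairs, which cannot go below 0.125 for 4 pairs and 0.0625 for 5, gave the Gli1 share 54.3 and 43.0 percentage points between genotypes and -9.53 between stages in stabilized samples, and the Gli2 to Gli3 ratio 0.99 and 2.47 between genotypes and -1.17 between stages in controls.

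Leaving out 1 library at a time, 4 to 6 of the 9 were higher and 1 was lower at E13.5, 7 were higher and 0 to 1 lower at E16.5, 3 were higher and 1 to 3 lower in the interaction, 3 to 5 higher and 1 to 2 lower by stage in controls, and 2 to 5 higher by stage in stabilized samples. Other Hedgehog genes lower at E13.5 numbered 3 to 5. Gli1 share differences ran from 53.8 to 55.0 at E13.5, where 3 against 4 libraries cannot reach the threshold, and from 1.33 to 2.44 by stage in controls, and Gli2 to Gli3 ratio differences at E13.5 from 0.87 to 1.11. Small differences changed sign for Sufu at E16.5 (-0.13 to 0.0366), Smo and Gli1 by stage in stabilized samples (-0.13 to 0.0492 and -0.0529 to 0.11), and Ptch1 in the interaction (-0.20 to 0.24) and by stage in controls (-0.13 to 0.31) and stabilized samples (-0.0361 to 0.23). At these depths 0 counts allow up to 0.100 CPM, which limits Shh and Hhip in E13.5 controls.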
